A study of Mus musculus with 7 samples.

Results

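The proteasome is the large protease that degrades ubiquitin-tagged proteins. The genes described here are those whose symbols begin with Psma, Psmb, Psmc, Psmd or Psme followed by a digit, without the interferon-inducible catalytic subunits Psmb8, Psmb9 and Psmb10. The gene table held 43 such genes. Of these, 41 had a matched probe on the array, and all 41 passed the filter on dim spots and were tested among 16938 items (named genes and transcripts without a symbol). Psma8 and Psme2b were not analysed here. The rule goes by name alone, so the 41 genes comprised 7 of the 20S alpha ring, 8 of the 20S beta ring, 6 ATPases and 11 other subunits of the 19S cap, 3 assembly chaperones of the cap, 4 activators, and 2 genes, Psmc3ip and Psme3ip1, whose products are not subunits.

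Expression was measured in prostate RNA of C57Bl/6 mice on 7 Agilent arrays, each with 2 colours. The 3 PB-NICD samples came from ARR2PB-Cre;ROSA(N1IC) mice, in which Cre, driven by the prostate promoter ARR2PB, turns on expression of the active, intracellular part of the Notch1 receptor, and which form prostatic intraepithelial neoplasia. Both groups carry the ROSA(N1IC) allele, since the 4 controls were ROSA(N1IC) mice described as wild-type for the domain. The sample cDNA was read in red and a universal mouse reference RNA in green on every array, with no dye swap. All values below are log2 ratios of sample over reference unless another scale is named, and a change is the difference of group means, PB-NICD less control, with its standard error (SE). Ages were not known here, and no label says whether the samples of a group came from separate mice, so p-values measure the spread between these samples. In whole prostate RNA, fewer cells of a type and less RNA per cell cannot be told apart.

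The 20S core of the proteasome is a barrel of stacked rings. Alpha subunits form the outer rings and the gate, and beta subunits form the inner rings, in which Psmb5, Psmb6 and Psmb7 carry the chymotrypsin-like, caspase-like and trypsin-like sites. The 19S cap binds ubiquitin chains, removes them and unfolds the substrate with a ring of ATPases, whereas the activators Psme1 and Psme2 (PA28 alpha and beta), Psme3 (PA28 gamma) and Psme4 (PA200) open the core without ubiquitin. Interferon raises Psme1 and Psme2 together with Psmb8, Psmb9 and Psmb10, which take the places of the standard catalytic subunits and favour peptides for antigen presentation. Subunit genes are otherwise known to be transcribed in step, through Nfe2l1 (Nrf1), when proteasome activity falls.

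The labels were checked against marker genes. Notch1 read 0.05, 0.30, 0.84 and 0.68 on control 1 to 4, and 2.64 and 2.74 on PB-NICD 2 and 3. The spot on PB-NICD 1 carried an outlier mark and did not enter the fit; it read 2.48 when kept. The change of Notch1 was 2.22 ± 0.21 (limma, adjusted p = 0.000269), and the Notch target Heyl stood between 2.60 and 2.79 on the PB-NICD arrays against -0.23 to -0.03 on the control arrays. The position of the Notch1 probe relative to the transgene is unknown here. The prostate secretory gene Pbsn was high on every array, at 9.81 to 11.71. Sbp, also a prostate secretory gene, read 9.50 to 11.50 in controls and 2.38, 4.75 and 9.44 on PB-NICD 1 to 3. Svs4, a seminal vesicle secretory gene, read 9.39 on control 2 and 5.75 on PB-NICD 1 but -0.28 to 2.36 on the other 5 arrays, so these 2 arrays stood apart and results are also given without them. In the sample channel 44.8% to 60.7% of probes were well above background on control arrays and 53.2% to 66.8% on PB-NICD arrays; for the reference RNA these shares were 73% to 89% and 63.7% to 79.1%. Control 1, control 2 and PB-NICD 1 lay on slide 1 and the other arrays on slide 2. Svs4 was thus higher on every slide 1 array, control 1 at 2.36 included, than on any slide 2 array (-0.28 to 0.71). Svs5, also a seminal vesicle gene, read 3.79 on control 1, 8.35 on control 2 and -0.21 to 1.69 on the measured slide 2 arrays. Leaving out control 2 and PB-NICD 1 keeps control 1.

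Only 1 of the 41 genes passed the test. Psme1, the alpha subunit of the PA28 activator, rose 1.45-fold in PB-NICD prostates, and no gene of the core, the 19S cap or its chaperones passed in either direction. Of the 40 that did not pass, the lowest changes were those of the catalytic subunits Psmb6 (-0.42 ± 0.13) and Psmb7 (-0.41 ± 0.12) and of the cap subunit Psmd8 (-0.41 ± 0.12). In each of these every PB-NICD array read below every control array. When arrays were centred on their medians instead of fitted by loess, the 3 stood at 0.24 to 0.29, beside a median of 0.27 for all items. Across all items 8.64% passed at an adjusted p below 0.05 in limma, 603 as higher (3.56%) and 860 as lower (5.08%) in PB-NICD. Against these, 1 of 41 proteasome genes was higher and 0 lower, and at an unadjusted p below 0.05 the counts were 1 higher (8.91% of all items) and 10 lower (12.8% of all items).

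The promoter of Psme1 is shown because Psme1 was the only called gene, that of Psme2 because its product pairs with Psme1 in PA28, and that of Psmb6 because its change was the lowest of the 41. Each stretch runs from 100 bases before to 30 bases after the start of the gene, 5′ to 3′ on the strand of the gene, from the RefSeq promoter table of GRCm38.p6. Psme1 lies at chr14:55578394-55578523 (+), Psme2 at chr14:55591072-55591201 (-) and Psmb6 at chr11:70525257-70525386 (+). Psme2 has another start entry in the table that overlaps this one. Capitals mark a match to the interferon-response-type motif GAAANNGAA in Psme1 and to the antioxidant-response-type motif TGANNNNGC in Psme2 and Psmb6, on either strand.
Psme1: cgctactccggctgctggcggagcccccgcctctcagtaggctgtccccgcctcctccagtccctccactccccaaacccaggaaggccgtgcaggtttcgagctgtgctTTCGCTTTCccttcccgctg
Psme2: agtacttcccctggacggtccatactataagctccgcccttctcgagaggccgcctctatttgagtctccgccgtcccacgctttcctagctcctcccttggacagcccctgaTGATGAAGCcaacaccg
Psmb6: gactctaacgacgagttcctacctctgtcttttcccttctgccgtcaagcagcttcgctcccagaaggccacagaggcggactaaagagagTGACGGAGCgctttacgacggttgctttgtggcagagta

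The marked match in Psme1 begins at base 11 after the gene's start, and that in Psmb6 begins 9 bases before it. The table held windows of 300 bases, from 250 before to 50 after the start, for 35 of the 41 genes. The motif GAAANNGAA stood in such a window for 6 of these 35 genes (17.1%), Psme1, Psmb3, Psmb4, Psmc2, Psmd4 and Psmd9, against 9.76% of 27025 genes in the table. The changes of these genes ran from -0.33 for Psmc2 to 0.54 for Psme1 after loess, and from 0.17 for Psmd9 to 1.19 for Psme1 with median centring. The motif TTCNNNGAA stood in 1 of the 35 (2.86%, Psmd2) against 9.55% of all genes, and TGANNNNGC in 21 (60%) against 45%. The ETS-type motif CCGGAAG stood in 14 of the 35 (40%), Psmc1, Psmc2 and Psmd2 among them, against 9.93% of all genes, and CCAAT in 15 (42.9%) against 41.1%. Each motif was searched on both strands, and a match is a description of these letters only.

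Among the activators, Psme1 read 0.95, 0.76, 0.69 and 0.70 on control 1 to 4 and 1.39, 1.25 and 1.29 on PB-NICD 1 to 3. All PB-NICD arrays lay above all control arrays, with means of 0.77 ± 0.12 (SD, n = 4) and 1.31 ± 0.07 (SD, n = 3). The change was 0.54 ± 0.11 (limma, adjusted p = 0.0129). Blocking on slide gave 0.56 (limma, adjusted p = 0.00481), and the arrays of 1 slide alone gave 0.54 on slide 1 (adjusted p = 0.171) and 0.58 on slide 2 (adjusted p = 0.056). Psme1 kept its direction in all 29 alternatives tried, with changes from 0.40 to 1.20, and its call in 21 of them. Among the alternatives, leaving out control 4 and taking samples 1 to 3 of both groups with no block are the same fit. The call was lost without PB-NICD 1 (0.50, adjusted p = 0.0576) and without both control 2 and PB-NICD 1 (0.49, adjusted p = 0.114). Psme1 was read by 1 tested probe.

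Psme2, the beta subunit that joins Psme1 in PA28, read 1.21, 0.75, 1.21 and 1.15 in controls and 1.08 and 1.15 on PB-NICD 1 and 2. Its spot on PB-NICD 3 was an outlier and read 1.44 when kept, above the control range. The groups overlapped, and the change was 0.03 ± 0.16 (limma, adjusted p = 0.933), with -0.03 on its other probe. Psme2 has a near-identical copy, Psme2b, which the probes may not separate. Psme3, the nuclear activator PA28 gamma, read 0.25 to 0.32 on the control arrays and 0.02 and 0.05 on the measured PB-NICD arrays. These groups did not overlap, yet the change of -0.24 ± 0.11 did not pass (adjusted p = 0.257). Psme4, which encodes PA200, read 0.44, 0.55, 0.87 and 0.80 against 0.14, 0.50 and 0.50, with a change of -0.28 ± 0.14 (adjusted p = 0.299). With slide as a fixed block Psme4 passed at -0.34 (adjusted p = 0.0496), although both of its other probes stood just above 0 (0.02 and 0.04). With median centring Psme4 stood at 0.30, beside a median of 0.27 for all items. The plot of activators and catalytic subunits shows the separation of Psme1 beside the overlap of Psme2.

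**Figure D1:**
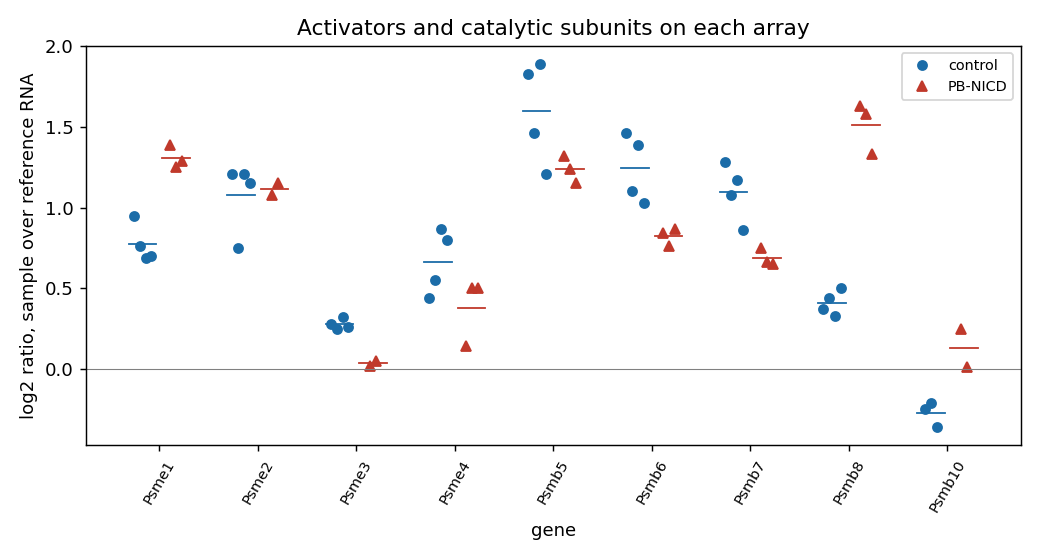
Log2 ratio of sample over reference RNA for the 4 activators, the 3 standard catalytic subunits and the immune subunits Psmb8 and Psmb10, with 1 point per array (circles control, triangles PB-NICD) and a line at each group's mean. Psme1 and Psmb8 stood higher on every PB-NICD array than on any control array, as did Psmb10 on the arrays where it was measured. Psmb6 and Psmb7 stood lower, as did Psme3 where it was measured, and Psme2 overlapped.

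The standard catalytic subunits of the beta ring were lower in PB-NICD after loess. With median centring Psmb5 (0.32), Psmb6 (0.28) and Psmb7 (0.29) stood above 0 but near the median of all items there (0.27). None passed the test in either setting. Psmb5, the chymotrypsin-like subunit, read 1.83, 1.46, 1.89 and 1.21 in controls and 1.32, 1.24 and 1.15 in PB-NICD. Its groups overlapped at control 4, and the change was -0.36 ± 0.17 (limma, adjusted p = 0.236). Psmb6, the caspase-like subunit, read 1.46, 1.10, 1.39 and 1.03 against 0.84, 0.76 and 0.87. The PB-NICD arrays all lay below the controls, and control means were 1.34-fold those of PB-NICD (adjusted p = 0.0785). Psmb7, the trypsin-like subunit, read 1.28, 1.08, 1.17 and 0.86 against 0.75, 0.66 and 0.65. It also showed no overlap, with a 1.33-fold difference (adjusted p = 0.0665). In the values of the authors' deposited table, tested the same way, Psmb6 (adjusted p = 0.0256) and Psmb7 (adjusted p = 0.0144) passed and Psmb5 did not (adjusted p = 0.117).

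The immune subunit Psmb8, which replaces Psmb5 in the immunoproteasome, read 0.37, 0.44, 0.33 and 0.50 in controls and 1.63, 1.58 and 1.33 in PB-NICD. It rose by 1.11 ± 0.11 (limma, adjusted p = 0.000245), by 1.23 within slide 1 (adjusted p = 0.00393) and by 1.04 within slide 2 (adjusted p = 0.00746), and passed in all 29 alternatives. Psmb10, which replaces Psmb7, stood at 0.40 ± 0.14 without passing (limma, adjusted p = 0.133). It was measured on 3 control arrays (-0.36 to -0.21) and 2 PB-NICD arrays (0.01 and 0.25), without overlap. It passed in 3 of 27 alternatives, the authors' table and outlier spots kept among them. Psmb9 had too few unflagged spots to be tested. Leukocyte markers were read beside these genes. Of 6 markers 3 were tested (Ptprc, Cd79a and Itgam), none was called, and their changes ran from -0.33 to -0.04. They were dim, with the sample channel well above background on 5, 5 and 3 of the 7 arrays. Cd3e, Adgre1 and Cd68 were not tested. The mean of these 3 on each array was -0.52 to -0.40 in controls and -0.68 to -0.52 in PB-NICD. The part of leukocyte RNA in the change of Psme1 was not tested beyond these values.

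Among the other beta subunits, Psmb1 read 1.61, 1.35, 1.55 and 1.30 in controls and 1.04, 0.95 and 1.23 in PB-NICD, again without overlap (-0.38 ± 0.12, adjusted p = 0.0936). Psmb4 (-0.13), Psmb3 (-0.07) and Psmb2 (-0.06) lay closer to 0, and Psmb11, the thymus-specific catalytic subunit, stood at 0.12 with negative ratios on all arrays. The beta ring had 7 of 8 changes below 0 and a median of -0.24.

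The alpha ring had 5 of 7 changes below 0 and a median of -0.19. Psma2 read 1.37, 1.40, 1.27 and 1.41 in controls and 1.05, 0.99 and 1.19 in PB-NICD, and its groups did not overlap (-0.28 ± 0.10, adjusted p = 0.135). Psma4 read 1.26, 0.96, 0.90 and 1.20 against 0.73, 0.72 and 0.88, with PB-NICD 3 just below control 3 (-0.30 ± 0.12, adjusted p = 0.181). On its other probe the groups overlapped, at 0.75 to 1.28 in controls and 0.75 to 1.12 in PB-NICD (-0.13). The rest were Psma7 (-0.25), Psma6 (-0.19), Psma1 (-0.05), Psma3 (0.02) and Psma5 (0.11), and in each of them the groups overlapped.

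Of the 6 ATPases that unfold substrates, 5 had changes below 0 and the median was -0.20. Psmc2 read 0.89, 0.91, 0.74 and 0.77 in controls, 0.65 and 0.63 on PB-NICD 2 and 3, and 0.20 on PB-NICD 1. The lowest value thus lay on PB-NICD 1, and the change was -0.33 ± 0.13 (adjusted p = 0.164), -0.69 within slide 1 and -0.12 within slide 2. Psmc1 read 0.96, 1.07, 0.93 and 0.98 against 0.77, 0.78 and 0.65 (-0.26 ± 0.10, adjusted p = 0.161). Psmc5 read 0.97 to 1.16 in controls and 0.80 and 0.74 on PB-NICD 1 and 3, its spot on PB-NICD 2 being an outlier (-0.28 ± 0.12, adjusted p = 0.203). In Psmc1 and Psmc2 the groups did not overlap. In Psmc5 they did not overlap without that spot, but it read 1.03 when kept, inside the control range. The other Psmc5 probe, measured on all 7 arrays, read 1.00 to 1.32 in controls and 0.59 to 0.92 in PB-NICD. Psmc3 (-0.14), Psmc6 (-0.09) and Psmc4 (0.01) overlapped.

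The 11 other cap subunits, which include the ubiquitin receptors Psmd2 and Psmd4 and the deubiquitinase Psmd14, had a median of -0.14, with 9 changes below 0. Psmd8 read 1.24, 1.07, 1.40 and 1.25 in controls and 0.64, 0.95 and 0.90 in PB-NICD. Its control mean was 1.33-fold the PB-NICD mean without overlap (limma, adjusted p = 0.0698), and it passed with slide as a fixed (-0.45, adjusted p = 0.0199) or random block (adjusted p = 0.0427). Within slide 1 its change was -0.52 and within slide 2 -0.40. Psmd7 read 1.28, 1.63, 1.34 and 1.50 against 1.14, 1.20 and 1.01, without overlap (-0.32 ± 0.12, adjusted p = 0.144). Its other probe gave -0.33 with overlap, at 0.75 to 1.45 against 0.44 to 1.22. The remaining changes were -0.27 for Psmd13, -0.14 for Psmd1, Psmd12 and Psmd14, -0.05 for Psmd3, -0.03 for Psmd6, -0.00 for Psmd4, 0.09 for Psmd2 and 0.24 for Psmd11. The other Psmd2 probe gave -0.25. Of the 11 genes with several tested probes, 5 had a probe of opposite sign: Psmc4, Psmd12, Psmd2, Psme2 and Psme4.

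Of the chaperones that assemble the 19S base, Psmd9 read 0.35, 0.21, 0.39 and 0.34 in controls and -0.10, 0.18 and 0.15 in PB-NICD (-0.25 ± 0.11, adjusted p = 0.235). Its groups did not overlap on the probe used, but did on its other probe (0.30 to 0.55 against 0.18 to 0.34, change -0.19). Psmd5 stood at -0.23 and Psmd10, the oncoprotein gankyrin, at 0.17, both with overlap. Of the genes that are not subunits, Psmc3ip, a meiotic recombination cofactor, stood at -0.26 and Psme3ip1, a partner of Psme3, at 0.04.

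**Figure D2:**
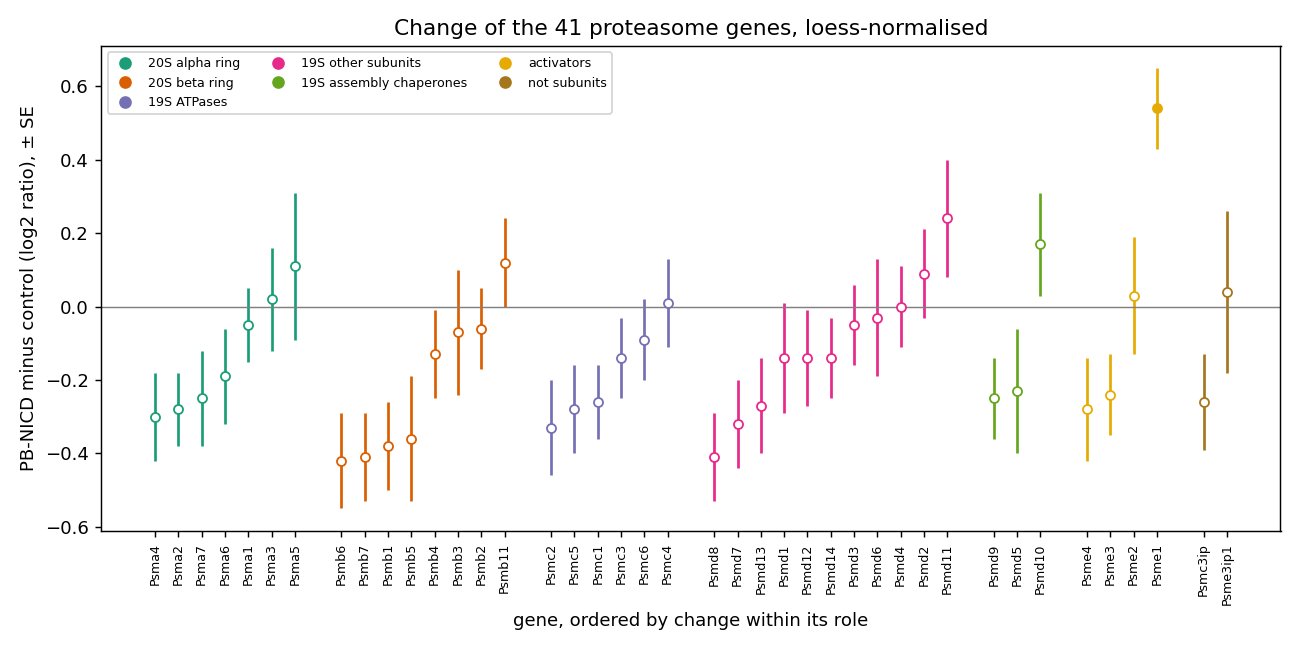
Change of each of the 41 genes, PB-NICD minus control in log2 ratio after loess, with bars of ± 1 SE, ordered within each role; the filled point passed at an adjusted p below 0.05. Psme1 at 0.54 stands apart from the other 40, which lie between -0.42 and 0.24, and this downward shift turned upward with median centring.

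Across the 41 genes, 31 changes were below 0 (75.6%, against 54.4% of all items) and 10 above. The 41 were bright, 39 of them above the median item in sample-channel signal, at a median percentile of 85.6. All items are thus not matched to them in brightness. The median was -0.14, against -0.03 for all items, and the range -0.42 to 0.54. All PB-NICD arrays with a value lay below all controls for 12 genes, Psmc5 among them (29.3%, against 15.2% of all items), and above them for 1 (10.4% of all items). These counts go by the probe used. On other tested probes the groups of Psma4, Psmd7 and Psmd9 overlapped, and those of Psmc5 and Psmd2 did not. Relative to the control mean of each gene, the median gene stood at -0.24, -0.15 and -0.12 on the PB-NICD arrays in order, and between -0.04 and 0.09 on the control arrays. Blocking on slide gave a median of -0.17, the arrays of slide 1 alone -0.25 and those of slide 2 alone -0.11. Without control 2 and PB-NICD 1 it was -0.12, and no gene passed (2.25% of all items higher, 2.5% lower). Markers of other cell types moved in the same comparison, in both directions. The urothelial marker Upk3a rose by 5.11 (limma, adjusted p = 0.000507), reading -0.06 and -0.19 on the 2 control arrays and 5.73 and 4.23 on the 2 PB-NICD arrays where it was measured. Upk1b (-0.56) and Upk2 (0.00) did not pass, although Upk1b passed as lower with slide as a fixed block (-0.77, limma, adjusted p = 0.00346). All 4 basal epithelial markers were below 0 and 2 of them passed, Krt5 and Krt15, whereas all 4 passed with slide as a fixed block. The mean over Krt5, Krt14 and Trp63 was 0.82 to 1.06 on control arrays and -0.06 to 0.16 on PB-NICD arrays. All 5 smooth muscle markers were below 0 without passing, with a mean over Acta2 and Des of 2.20 to 2.81 against 1.80 to 2.35, and 2 of them passed with slide as a fixed block, Cnn1 (adjusted p = 0.0188) and Acta2 (adjusted p = 0.0346). All 4 skeletal muscle markers and the 3 fibroblast markers tested were below 0 without passing. With median centring 3 of the 4 basal markers, 2 of the 4 skeletal muscle markers and 0 of the 5 smooth muscle and 3 fibroblast markers were below 0. The smooth muscle median was 0.26 there, beside 0.27 for all items. The part of these cell types in the shift of the proteasome genes was not tested.

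**Figure D3:**
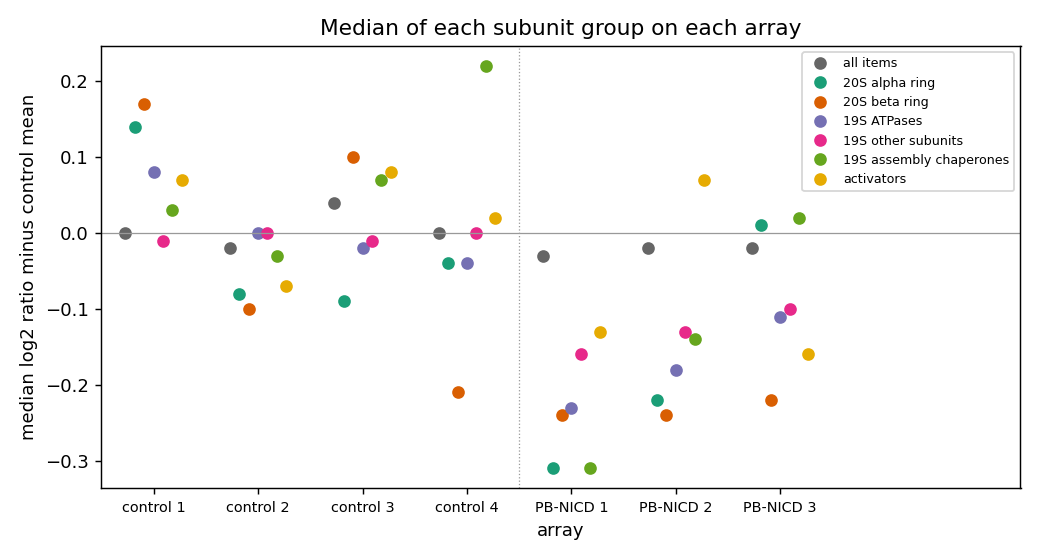
Median over each subunit group, and over all items tested, of the log2 ratio minus the gene's control mean, for each array. The beta ring stood at -0.24, -0.24 and -0.22 on the PB-NICD arrays but also at -0.21 on control 4, and the shift below 0 held after loess but not with median centring.

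This shift turned with the normalisation. With each array only centred on its median, the median of all items moved to 0.27 and that of the proteasome genes to 0.40, which is 0.12 above all items where loess gave -0.12 relative to them. In that setting 12 of the 41 passed as higher, among 25.4% of all items, Psme1, Psma5 and Psmd3 among them, and Psme3ip1 passed as lower (1.68% of all items). In the sample channel alone, without the reference, the median was -0.01, equal to that of all items, 21 of 41 changes were below 0, and Psme1 alone passed (2.74% of all items higher, 2.48% lower). In the authors' deposited table the median was -0.16. There 10 of the 41 passed as lower, among 11.5% of all items, and Psme1 passed as higher, among 7.43%. Processed signals gave Psme1 higher (2.93% of all items) and Psmd8 lower (3.74%). Scaling between arrays gave 0 higher (3.35% of all items) and 3 lower (6.67%), and slide as a fixed block gave 1 higher (4.74%) and 2 lower (7.29%). With every spot in the estimate of the background correction, a form in which PB-NICD 1 correlated with its own column of the authors' table at only 0.831, none of the 41 was higher (0.407% of all items) or lower (2.29%). Psme1 lay above the median of all items in each of these scalings, by 0.56 with loess, 0.92 with median centring and 0.67 in the sample channel alone.

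**Figure D4:**
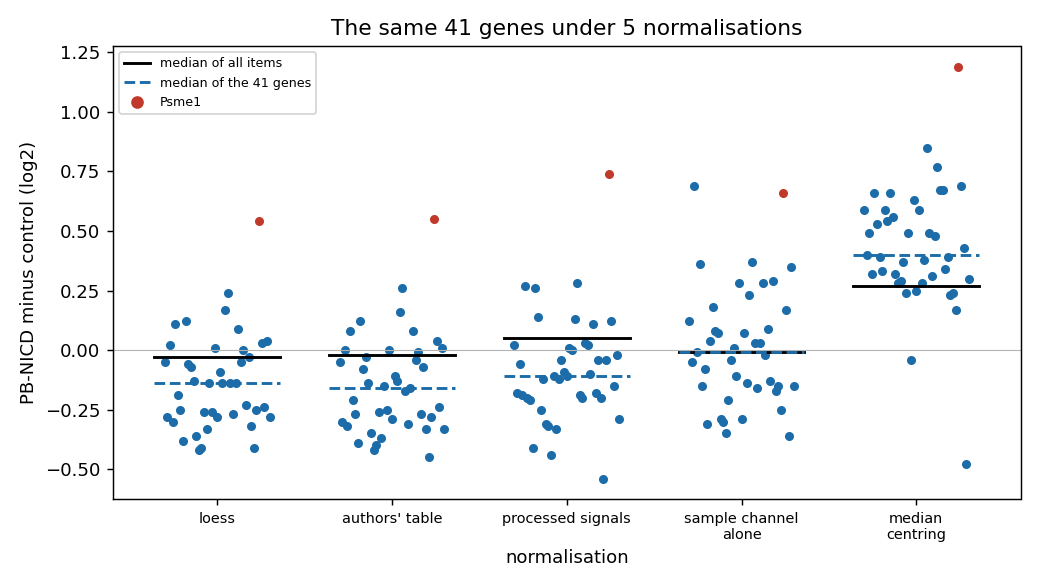
Change of the same 41 genes (points, Psme1 in red) under 5 normalisations, in log2 units, with the median of the 41 genes (dashed) and of all items (solid). The dashed line lies below the solid one for loess (-0.14 against -0.03), the authors' table and the processed signals, on it for the sample channel alone, and above it with median centring (0.40 against 0.27), whereas Psme1 lies above both lines throughout.

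Other genes of the pathway were read from a list of assembly factors, regulators, proteasome-bound enzymes, shuttle receptors, ubiquitin genes and the Vcp segregase. Of 38 tested, 0 rose (3.56% of all items) and 2 fell (5.26%, against 5.08% of all items), so the share that fell was near that of all items. At an unadjusted p below 0.05 the counts were 2 higher (8.91% of all items) and 9 lower (23.7%, against 12.8% of all items). Vcp, the ATPase that extracts ubiquitinated proteins from membranes and complexes, read 0.88, 0.86, 0.81 and 0.95 in controls and 0.39, 0.27 and 0.49 in PB-NICD, and fell by 0.49 ± 0.10 on the log2 scale (limma, adjusted p = 0.0161). Ubb, which encodes a chain of ubiquitin units, read 1.74, 1.43, 1.70 and 1.50 against 0.99, 1.09 and 1.13 and fell by 0.52 ± 0.11 (adjusted p = 0.0187). In both genes the groups did not overlap, and ubiquitin genes share near-identical sequence that a probe may not separate.

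Blocking on slide gave falls of 0.49 for Vcp (limma, adjusted p = 0.0125) and 0.53 for Ubb (adjusted p = 0.0126). Neither passed within a slide, in the sample channel alone, without PB-NICD 1, without PB-NICD 2, or without both control 2 and PB-NICD 1. With median centring neither passed, and each stood above 0, Vcp at 0.066 and Ubb at 0.26. The median of all items was 0.27 there, so Vcp still lay below it and Ubb lay near it. Next came Txnl1, a thioredoxin bound to the cap (-0.43, adjusted p = 0.051), and the conjugating enzyme Ube2d3 (-0.39, adjusted p = 0.0547). Blocking on slide brought both past the threshold, at adjusted p = 0.0326 and 0.042. All 6 ubiquitin and activation genes tested were below 0 after loess (median -0.30, with 54.4% of all items below 0). With median centring 1 of the 6 was below 0 and their median was 0.32, beside 0.27 for all items. Of the regulators, the transcription factors Nfe2l1 (0.16) and Nfe2l2 (0.18) and the deglycosylase Ngly1 (0.14) were above 0 and Keap1, which holds Nfe2l2 in check, stood at -0.28, none of them passing. The assembly chaperone Pomp stood at -0.19, Psmg1 at 0.01, the inhibitor Psmf1 at 0.25 and the proteasome import factor Akirin2 at 0.44 (adjusted p = 0.12). The zinc finger gene Zfand5 read -0.15, -0.04 and 0.05 on control 2 to 4 and 0.49 and 0.39 on PB-NICD 2 and 3, with no overlap; its spots on the other 2 arrays were left out. Its change was 0.49 ± 0.13 (limma, adjusted p = 0.0647), and it passed as higher in 5 of 28 alternatives, with outlier spots kept among them.

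**Figure D5:**
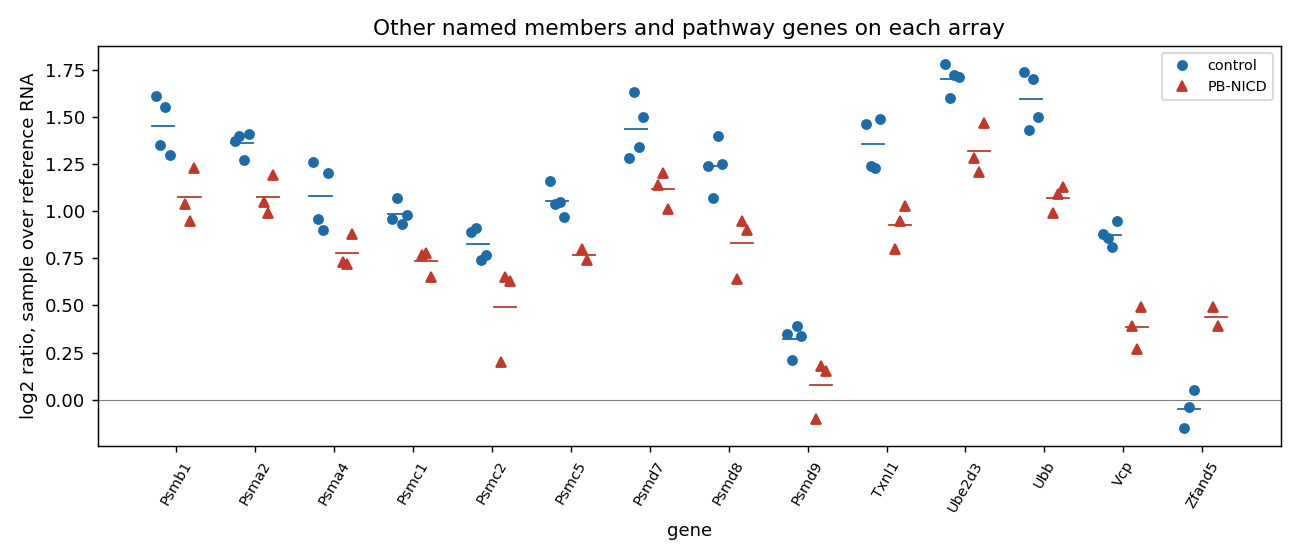
Log2 ratio of sample over reference RNA, after loess, for the other 9 genes of the 41 with the lowest p and for the 5 pathway genes with the lowest p, with 1 point per array and a line at each group's mean. The genes were chosen by p, so separated groups follow from the choice. The triangles lie below the circles in 13 genes and above them in Zfand5 (0.49). With median centring the differences of the 13 were above 0, where the median of all items was 0.27.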

How the data were processed

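Agilent Feature Extraction 10.7.3.1 made the scanner values, per the file headers. The deposited intensity columns are median spot and background signals, not normalized, and processed signals. The deposited log10 ratio is red over green of the processed signals, and the deposited other columns are flags and positions per spot. The authors also deposited a table of log2 ratios, with column medians of -0.01 to 0.00, whose normalization method the sources do not give. RNA was extracted with Trizol and 2.5 µg used, per the labels' protocols.

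Background was corrected in limma 3.58.1 (R 4.3.3) with normexp (offset 50), followed by loess within arrays. In the planned form, every spot enters the normexp estimate. On PB-NICD 1, 5 spots flagged as background outliers drew the fitted red noise SD to 344 (1.62 without flagged spots), and r with that array's column of the authors' table was 0.831 (0.99 without). Flagged spots were therefore left out of the estimate, a choice made after the data were seen. The mean signals planned are not in the columns used, so median signals were taken. Control spots and outlier spots were dropped. Probes were kept if the sample channel stood well above background on 3 or more arrays, with at least 2 values per group, and the brightest was used per gene. Probes were named by accession through the RefSeq table of GRCm38.p6 (24375 named, 16799 not). Groups were compared with lmFit and eBayes, two-sided, with Benjamini-Hochberg adjustment over all 16938 items, at 0.05. The fit was tested on simulated data.

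The genes and lists were chosen with earlier results of these data known. Values on each array are given for the 12 genes of lowest p, and for catalytic subunits and activators whatever their p; pathway genes are named by lowest p up to 5, with some others by role. 1 pathway gene and 2 marker genes of the lists are not reported here. The scalings, filters, blocks and left-out arrays tried are given at the end. Precision is limited by having 4 and 3 arrays.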

Additional observations from a re-analysis of the deposited data

Results flagged for a closer look

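Psme2 read 0.75 on control 2, whereas the other 3 control arrays read 1.15 to 1.21. The gap was 0.857 of the group's range, past Dixon's critical value for 4 samples. It was the 1 such value among 21 named genes with 4 control values, and chance gives about 1 in 20. The other Psme2 probe read 1.08 on control 2, inside the range of the other control arrays (1.00 to 1.22). Control 2 was also the array with the highest Svs4 ratio (9.39), and whether seminal vesicle RNA takes part was not tested. Without control 2 the change of Psme2 was -0.07 (limma, adjusted p = 0.824).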

How the results depend on the processing

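Psme1 kept its direction in all 29 alternatives and its call in 21. The call was lost with scaling between arrays (adjusted p = 0.0795), within either slide, without PB-NICD 1, without control 2 and PB-NICD 1, without spots of any background flag (0.49, adjusted p = 0.0793), and with every spot in the normexp estimate, without (0.40, adjusted p = 0.167) or with slide as a block (0.40, adjusted p = 0.103). With every spot in that estimate, which was the planned form, 0 genes were higher and 0 lower, with a median of -0.26, against 0.407% and 2.29% of all items, and 0 pathway genes passed. With slide as a block added, 0 genes were higher (1.09% of all items) and 3 lower (Psmb7, Psme4 and Psmd8, with 7.13% of all items lower). The median there was -0.31, and 9 pathway genes were lower.

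Genes higher among the 41 numbered 12 with median centring (25.4% of all items). They numbered 0 with scaling between arrays (3.35%), within slide 1 (2.53%), within slide 2 (2.3%) and without control 2 and PB-NICD 1 (2.25%). They also numbered 0 without spots of any background flag, where 582 of all items were higher. Genes lower numbered 10 in the authors' deposited table (11.5% of all items), 3 with scaling (6.67%) and 2 with slide as a fixed block (7.29%). They numbered 1 with median centring (1.68%), processed signals (3.74%), a random slide block (5.95%) or all 7 arrays above background (7.63%). Leaving out 1 array gave 0 to 1 higher, 0 to 1 lower and a median of -0.22 to -0.13. The count higher was 0 without PB-NICD 1 (2.9% of all items), and the count lower was 1 without control 4 (627 of all items). The median was 0.40 with median centring, -0.011 in the sample channel alone and -0.25 within slide 1. Calls among all items were 41.2% higher with loess, 93.8% with median centring, 52.5% in the sample channel and 15.1% with every spot in the estimate. The cause of these differences was not tested.

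Pathway genes lower numbered 11 in the authors' table (11.5% of all items), 7 with scaling (6.67%), 6 with slide as a fixed block (7.29%), 4 as a random block (5.95%), with no background subtraction (5.38%), with all 7 arrays above background (7.63%) or with outlier spots kept (5.18%), 1 with processed signals (3.74%), an offset of 16 (4.37%) or the replicate block (4.22%), and 0 with median centring (1.68%), in the sample channel (2.48%), within slide 1 (3.02%), within slide 2 (3.39%) and without control 2 and PB-NICD 1 (2.5%). Leaving out 1 array gave 0 to 3 lower (0 without PB-NICD 1, 3.06% of all items, and 0 without PB-NICD 2, 2.89%) and 0 to 1 higher. Pathway genes higher numbered 5 with median centring (25.4% of all items), 2 in the authors' table (7.43%), and 1 with all 7 arrays above background (3.79%), outlier spots kept (3.54%) or the mean of a gene's probes (3.6%).

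With median centring the changes turned positive: Psmb7 0.29, Psmd8 0.24, Psmb6 0.28, Psmb1 0.33, Psma2 0.40, Psmd7 0.23, Psmc1 0.37, Psmc2 0.24, Psma4 0.32, Psmc5 0.25, Psmd9 0.17, Psmb5 0.32, Psme3 0.43, Psme4 0.30, Vcp 0.066, Ubb 0.26, Txnl1 0.27 and Ube2d3 0.21. In that setting the median of all items was 0.27, so a value above 0 is not by itself a rise relative to all items. The change of Psme2 turned negative with scaling (-0.049), within slide 2 (-0.024), leaving out 1 array (-0.073 to 0.079, below 0 without control 2 and, at -0.0026, without PB-NICD 2), with every spot in the estimate (-0.18, and -0.18 with the slide block), without spots of any background flag (-0.073) and without control 2 and PB-NICD 1 (-0.036).

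Same-numbered samples correlated at 0.316, -0.24 and 0.0793 in their deviations. These values cannot settle whether the numbers pair the samples, since numbers 1 and 3 shared a slide and number 2 did not. With the replicate block over replicates 1 to 3, Psme1 passed (0.51, limma, adjusted p = 0.0478), among 3.58% of all items higher. There 0 of the 41 were lower (4.22% of all items) and the median was -0.16. The same arrays with no block gave 1 lower, among 627 of all items. That fit is the same as the fit without control 4, and both are counted among the alternatives. The sample channel was dim, with a median spot signal of 69 to 87.5 on control arrays over a background of 53 to 55, so an offset of 50 understates changes of dim genes.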
